A study of Mus musculus with 6 samples.

Results

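The ribosome biogenesis genes described here are 39 mouse genes listed by symbol: nucleolar proteins, RNA polymerase I subunits, proteins of small nucleolar ribonucleoproteins (snoRNPs), assembly factors of both ribosomal subunits, and the translation factors Eif4a1 and Eif5a. All 39 symbols were found among the 21233 genes of the count table. All 39 were also among the 13255 genes that passed a filter on low counts and were tested. The list was applied by name, and no expression threshold entered it.

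The libraries came from mouse Th9 cells, CD4 T helper cells that secrete interleukin 9. Bulk RNA-seq was performed on 3 libraries titled Ctrl, from cells that received no sorafenib, and 3 titled Sora, from cells treated with sorafenib, a multikinase inhibitor used against liver and kidney cancer. The genotype, strain and age of the mice, the way the cells were made and the dose, vehicle and duration of treatment are not given in the labels. Nothing says that replicates were separate cultures or animals. The p-values thus measure only the spread between the samples at hand, which may be technical.

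Ribosomes are built in the nucleolus, where RNA polymerase I transcribes the long ribosomal RNA precursor. Box C/D and box H/ACA snoRNPs then methylate and pseudouridylate the precursor, and large sets of assembly factors fold, cut and carry the small and large subunits toward the cytoplasm. Resting T cells make few ribosomes, and activation is known to raise nucleolar output strongly as the cells grow and divide. Myc, which binds E-box DNA, and the mTOR pathway are textbook activators of these genes.

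Depth was even, at 36981476 to 38126521 counts per library. A count of 3, the upper limit that a count of 0 allows, corresponded to 0.0787 to 0.0811 CPM, in which each count is divided by its library's total. This floor covers counting error only. Below, CPM is given after scaling by edgeR's TMM factors, except for the marker sums of this paragraph, which use library totals alone. Control replicate 2 stood apart: the SD of its log2 CPM from the mean of its group's other libraries was 0.491 over all tested genes, against 0.29 to 0.383 in the other 5 libraries. The T cell markers Cd3d, Cd3e, Cd3g, Cd4 and Il9 summed to 1183 to 1299.7 CPM in controls and 1260.0 to 1309.8 CPM with sorafenib (1 called higher, 2 lower). Among markers of other cells, 5 of 5 tested B cell genes were called higher with sorafenib (summed over 6 genes, 7.49 to 14.4 CPM in controls and 29.2 to 32.5 CPM with sorafenib). Of 3 tested stromal and epithelial markers 2 were called lower (sum over 4 genes 50.7 to 55.2 CPM against 28.3 to 30.3 CPM), and 1 of 2 CD8 T cell markers was called higher (6.22 to 6.95 against 9.13 to 11.3 CPM). The highest count of any gene in a library was 1945 among the stromal and epithelial markers and 416 among the CD8 markers. In those libraries 1 gene thus made up most of its list's sum. Myeloid markers (0 of 2 tested called, 0.642 to 1.91 CPM over all libraries) and erythroid markers (none of 4 passed the filter, 0.135 to 0.485 CPM) were low. No marker was at 0 in all libraries. The part of these cells in the results below was not tested. In bulk RNA, fewer cells of a type and less RNA per cell cannot be told apart.

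The ribosome biogenesis genes were abundant transcripts in both groups. On the FPKM scale, which divides by a gene length, they ran in controls from Npm1 at 1546 ± 150.0 (SD, n = 3) to Wdr12 at 3.24 ± 0.174. Their median was 36.0, against a median of 5.22 over all tested genes. The order between genes depends on these lengths, and whether they match the transcripts in these cells was not tested. Wdr12, with a length of 9014 bases, had 30.1 ± 3.12 CPM in controls, and Grwd1 (2334 bases) had 27.0 ± 2.78 CPM. The same limit holds for the level of the FPKM ratios given below. Nucleophosmin (Npm1), a nucleolar chaperone, stood above 99.5% of tested genes by control FPKM. Below it came Eif4a1 at 605 ± 30.4 FPKM, Eif5a at 508 ± 33.6 FPKM and nucleolin (Ncl), which binds the nascent precursor, at 187 ± 6.31 FPKM. Fibrillarin (Fbl), the snoRNP methyltransferase, followed at 109 ± 8.47 FPKM. Polr1c, a subunit that RNA polymerases I and III share, was at 106 ± 13.6 FPKM, so Fbl and Polr1c did not differ beyond their spread. The large catalytic subunits of RNA polymerase I were much lower, at 8.43 to 11.0 FPKM over the control libraries for Polr1a and 9.77 ± 0.560 FPKM for Polr1b. At the foot of the order were Bysl at 9.04 ± 0.218 FPKM, Utp20 at 6.45 ± 1.17 FPKM and Wdr12.

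With sorafenib the order was nearly the same. Npm1, Eif4a1, Eif5a and Ncl held ranks 1 to 4 in both groups, and Grwd1, Polr1a, Polr1b, Bysl, Utp20 and Wdr12 held ranks 34 to 39 in both. Fbl and Polr1c exchanged ranks 5 and 6. The 39 genes together took 0.965% to 1.04% of all counts in the control libraries and 0.972% to 1.01% with sorafenib, so the ranges overlapped. Without the 4 most abundant genes (Npm1, Eif4a1, Eif5a and Ncl) the share was 0.350% to 0.358% in controls and 0.361% to 0.365% with sorafenib, and these ranges did not overlap. After TMM scaling they did, at 3527 to 3796 summed CPM in controls and 3514 to 3555 with sorafenib.

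**Figure D1:**
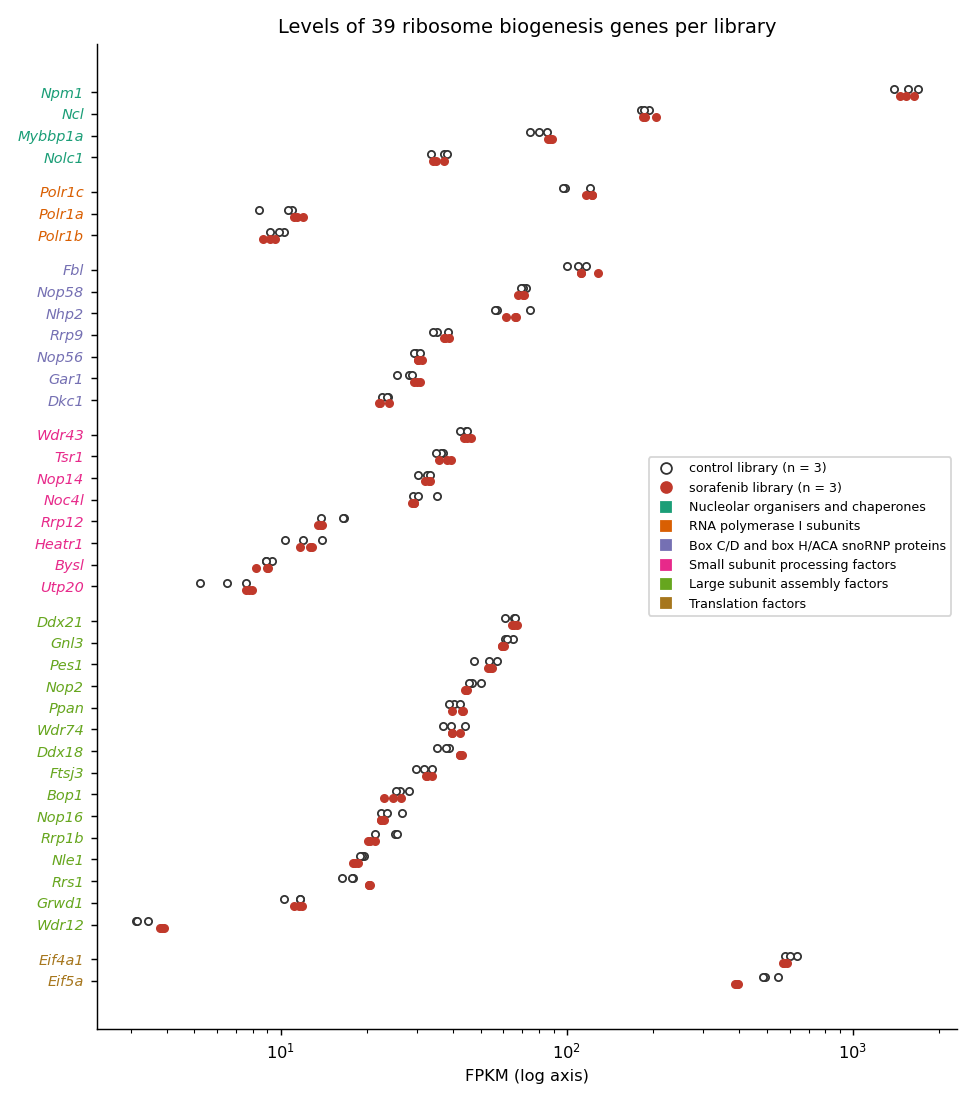
FPKM (log axis) of the 39 ribosome biogenesis genes in each of 3 control libraries (open circles) and 3 sorafenib libraries (filled circles), grouped by role and ordered by level. Levels run from Wdr12 at about 3.24 FPKM to Npm1 at about 1546 FPKM in controls, and for most genes the open and filled circles lie on top of each other.

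E-box letters were looked for in the promoters, because Myc acts through them. RefSeq promoter windows of 300 bases (250 before and 50 after the annotated start, build GRCm38.p6) were at hand for 34 of the 39 genes, in 42 windows, and Bop1, Fbl, Npm1, Rrp12 and Rrs1 had none in the table. The E-box CACGTG, which reads the same on both strands, was present in 12 of the 42 windows (28.6%), from 10 genes (29.4% of the 34). It was present in 7.15% of all 32851 promoter windows and in 9.79% of the 12276 windows of tested protein-coding genes. Windows of alternative starts can overlap, so a site can be counted more than once. Eif5a alone has 6 of the 42 windows. The share by gene was not computed over all genes, so only the 28.6% compares with these background shares. The 11 distinct sites are shown with up to 10 bases on each side, 5′ to 3′ on the strand of the gene, with the E-box in capitals; they begin between 189 bases before and 40 bases after the start.
Eif4a1, chr11:69672597-69672622, minus strand: atcgcctccgCACGTGtaaaggtgct
Eif5a, chr11:69920793-69920818, minus strand: gctgcgcggcCACGTGaggtggggga
Eif5a, chr11:69921445-69921470, minus strand: ggggcggggtCACGTGtgtgcgtcat
Grwd1, chr7:45830740-45830765, minus strand: gccggagtcgCACGTGtgaaaccgga
Mybbp1a, chr11:72441357-72441376, plus strand: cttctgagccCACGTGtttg
Nle1, chr11:82908357-82908382, minus strand: ggttctcctcCACGTGgggacgcagg
Nop2, chr6:125131813-125131838, plus strand: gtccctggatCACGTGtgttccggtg
Pes1, chr11:3963967-3963992, plus strand: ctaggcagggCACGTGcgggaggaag
Tsr1, chr11:74898094-74898119, plus strand: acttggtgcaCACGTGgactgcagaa
Utp20, chr10:88826765-88826787, minus strand: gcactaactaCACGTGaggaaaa
Wdr43, chr17:71616222-71616247, plus strand: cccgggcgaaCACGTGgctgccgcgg
The ETS core CCGGAA, searched on both strands and unable to overlap the E-box by its letters, was in 15 of 42 windows (35.7%), against 14.9% of all windows and 27.5% of those of tested protein-coding genes. The TATA box TATAAA, also searched on both strands, was in 3 windows (7.14%, from Dkc1, Pes1 and Ppan), against 13.6% and 6.82%. A match describes letters only and is no measure of binding.

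The median log2 fold change (sorafenib minus control) was -0.05 over the 10 genes with the letters and -0.04 over the 24 without. Genes with the letters included both ends of the range, Eif5a at -0.45 and Utp20 at 0.20. The 250 bases before a start are shown for Eif5a, the gene with the largest decrease, for Polr1c, whose call depended on 1 library, and for Rrp1b, the other called gene with a window. These 3 were chosen after their values were seen. Capitals mark the E-box in Eif5a (1 of its 6 listed windows) and the ETS core in Polr1c, and the Rrp1b window (1 of 2) held none of the 3 motifs. In their 250 bases, the other Eif5a windows ranged from none of the 3 motifs to an E-box with an ETS core. Which start these cells used was not tested.
Eif5a, chr11:69921276-69921525, minus strand: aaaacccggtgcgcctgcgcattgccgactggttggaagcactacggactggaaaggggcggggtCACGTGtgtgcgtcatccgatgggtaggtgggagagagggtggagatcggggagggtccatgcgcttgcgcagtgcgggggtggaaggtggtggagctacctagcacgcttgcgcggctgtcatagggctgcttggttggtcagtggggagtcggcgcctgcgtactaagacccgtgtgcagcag
Polr1c, chr17:46248046-46248295, minus strand: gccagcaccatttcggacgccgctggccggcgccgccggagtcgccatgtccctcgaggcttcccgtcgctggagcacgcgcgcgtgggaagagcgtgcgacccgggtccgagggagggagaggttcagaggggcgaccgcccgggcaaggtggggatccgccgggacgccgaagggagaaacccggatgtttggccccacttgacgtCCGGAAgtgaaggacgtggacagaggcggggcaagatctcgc
Rrp1b, chr17:32035912-32036161, plus strand: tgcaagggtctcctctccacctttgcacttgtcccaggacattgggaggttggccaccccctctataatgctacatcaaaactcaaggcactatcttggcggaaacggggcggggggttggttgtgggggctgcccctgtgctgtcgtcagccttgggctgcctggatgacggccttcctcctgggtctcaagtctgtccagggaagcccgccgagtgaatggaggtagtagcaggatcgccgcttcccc

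Most ribosome biogenesis genes differed little between sorafenib and control. Eif5a, Rrp1b and Rrp12 fell, and no gene rose, at an adjusted p under 0.05 (edgeR quasi-likelihood test, Benjamini-Hochberg over 13255 genes). The 3 calls were 7.69% of the 39 genes, below the 17.9% of all tested genes that were called. No gene was called higher, against 8.51% of all tested genes, and the 3 called lower compare with 9.43%. At an unadjusted p under 0.05 there were 6 of the 39 genes, all lower, against 4096 of the 13255 tested genes (1981 higher and 2115 lower). DESeq2 and limma-voom each called 0 higher and 3 lower of the 39. Over all tested genes DESeq2 called 1287 higher and 1420 lower, and limma-voom 1149 higher and 1239 lower.

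The size of the differences was small. The median log2 fold change of the 39 was -0.05 (0.03 when libraries were scaled by total counts only or on the FPKM scale), against -0.01 over all tested genes (0.07 with total counts only). Of the 39, 9 had a value above 0 and 30 below, against 6399 above and 6856 below of all tested genes. However, 14 of the 39, called in neither fit, changed sign with total counts only. The 36 genes that were not called had log2 fold changes between -0.19 and 0.20, and their 95% intervals all lay between -0.40 and 0.41. The 3 libraries of one group lay entirely above or below those of the other for 13 genes (33.3%). This share in either direction was near the 36.3% of all tested genes. By direction the 39 had 1 above and 12 below with sorafenib, against 2423 above and 2388 below of the 13255 tested genes. The difference in direction was not tested.

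**Figure D2:**
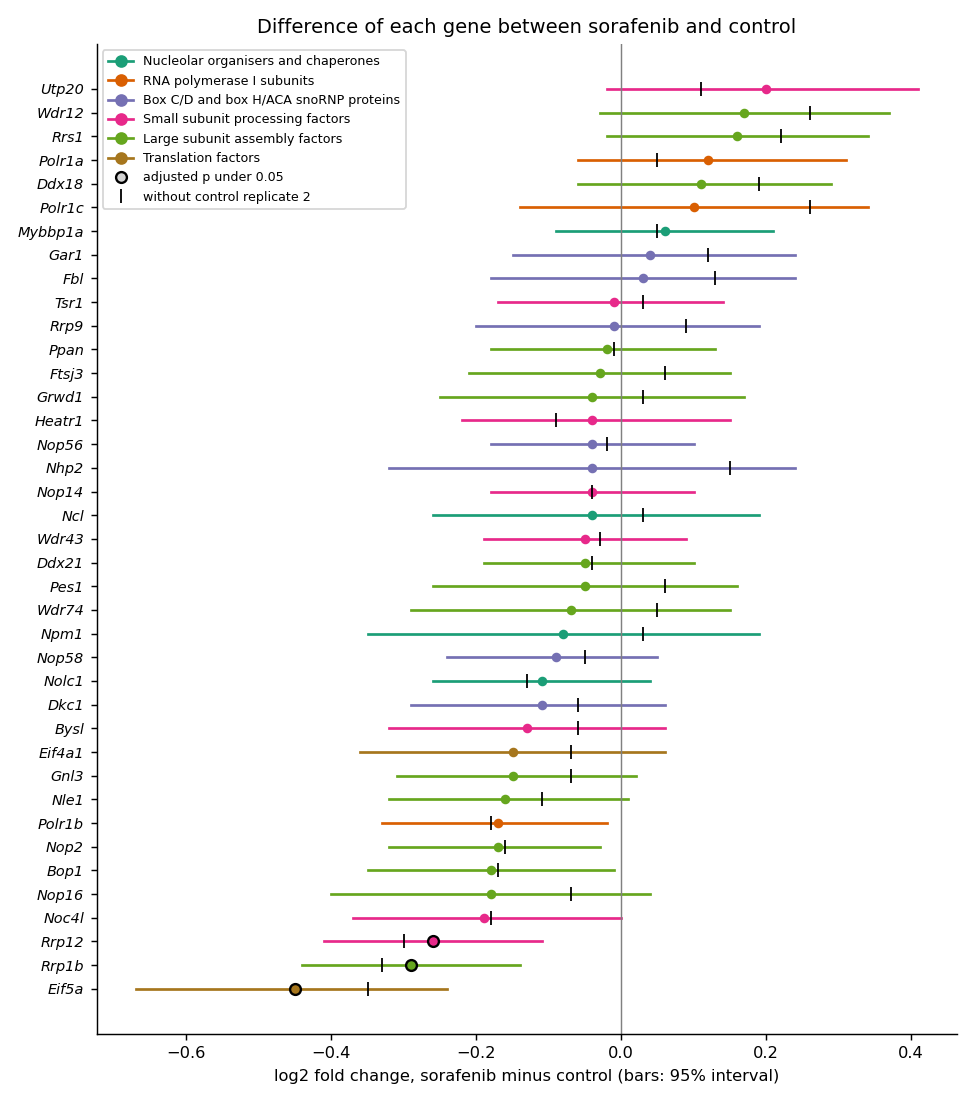
Log2 fold change of the 39 ribosome biogenesis genes (sorafenib minus control, TMM-scaled counts), with 95% intervals from edgeR, coloured by role; black outlines mark an adjusted p under 0.05 and vertical ticks give the value without control replicate 2. Eif5a (-0.45), Rrp1b (-0.29) and Rrp12 (-0.26) lie at the low end, and the intervals of most other genes cross 0.

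Control replicate 2 moved with these results. It was the highest control for 25 of the 39 genes and the highest of all 6 libraries for 23. These counts were not made over all tested genes. Its log2 CPM minus the mean of the other controls ran from -0.31 for Utp20 to 0.51 for Nhp2. Short genes tended to be higher in it and long genes lower: over the 39 genes the Spearman correlation of this deviation with gene length was -0.67. Over all tested genes it was -0.47, so the trend was not particular to the 39. The points share one library and its scaling factor. Over the 39 genes each of the other controls gave 0.49 (0.371 and 0.289 over all tested genes for replicates 1 and 3). Their means include control replicate 2, so these values are not independent of it. The sorafenib libraries, each set against the others of its group, gave -0.19, 0.30 and -0.10 over the 39 genes. Nhp2, at 1008 bases, deviated by 0.51, and Polr1c, at 1305 bases, by 0.43. Utp20, at 8831 bases, deviated by -0.31, while Ncl, at 8770 bases, deviated by 0.19. The median coefficient of variation of the 39 genes was 8.36% over the controls, 3.16% over the controls without replicate 2, and 2.46% over the sorafenib libraries. Over all tested genes the same medians were 11.5%, 6.40% and 6.29%, so this pattern too was shared by the whole table.

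**Figure D3:**
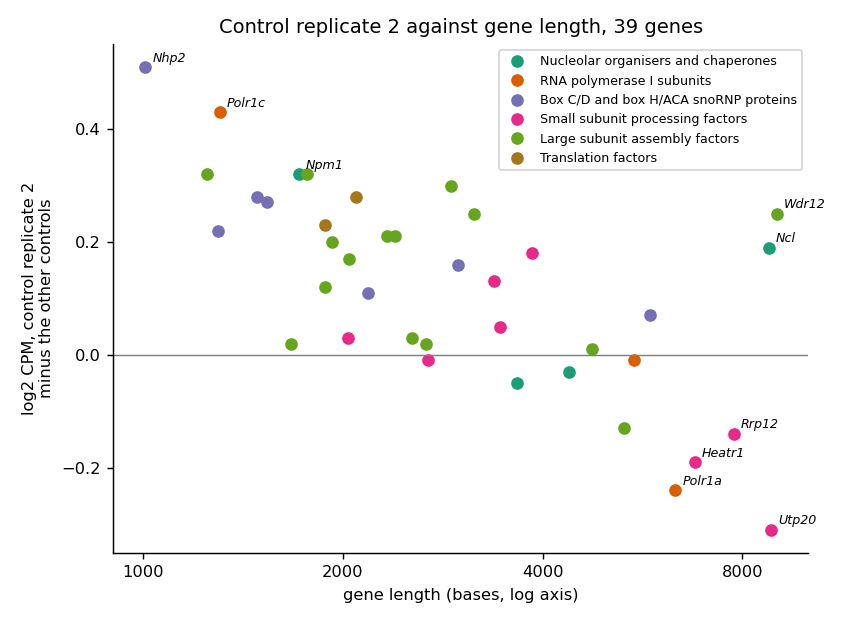
Log2 CPM of control replicate 2 minus the mean of the other controls, against gene length in bases (log axis), 1 point for each of the 39 ribosome biogenesis genes, coloured by role. Short genes such as Nhp2 (0.51) lie above 0 and most long genes such as Utp20 (-0.31) below it, with exceptions such as Ncl, Wdr12 and Nop56 (0.07).

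Without control replicate 2 the same 3 genes were called lower, Nop2 and Polr1b joined them, and Polr1c, Wdr12, Rrs1 and Ddx18 were called higher. These 9 calls were 23.1% of the 39 genes, against 31.8% of all tested genes in that fit. The 4 called higher compare with 15.0% of all tested genes, and the 5 called lower with 16.8%. In both fits the share of called genes was below that over all tested genes, and the difference between the shares was not tested. Both versions are given below for each gene whose call differs. Of the genes called in neither fit, 9 changed sign without control replicate 2, among them Nhp2 (-0.04 to 0.15) and Npm1 (-0.08 to 0.03). Others moved toward 0 or away from it with the same sign, such as Nop16 (-0.18 to -0.07), Gnl3 and Eif4a1 (both -0.15 to -0.07) and Fbl (0.03 to 0.13).

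The 4 nucleolar organisers and chaperones gave no call. Npm1 had 2371, 3154 and 2693 CPM in control replicates 1 to 3 and 2748, 2437 and 2565 CPM with sorafenib, and Ncl had 1570.3, 1839 and 1642 CPM against 1763, 1559 and 1597 CPM. For both genes control replicate 2 was the highest library and the groups overlapped. Their log2 fold changes were -0.08 (95% interval -0.35 to 0.19) and -0.04 (-0.26 to 0.19). Nolc1, a scaffold protein of nucleolar and Cajal body snoRNPs, had a log2 fold change of -0.11 (edgeR adjusted p = 0.294). Mybbp1a, a nucleolar protein that binds Myb and takes part in precursor processing, was at 359 ± 15.3 CPM in controls and 374 ± 7.60 CPM with sorafenib, a log2 fold change of 0.06.

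Among the 3 RNA polymerase I subunits none was called with all 6 libraries. Polr1b, the second largest subunit, had 56.0, 54.7 and 54.4 CPM in controls and 46.6, 48.8 and 51.1 CPM with sorafenib. Every sorafenib library was below every control, at a log2 fold change of -0.17 ± 0.07 (SE; unadjusted p = 0.0324, edgeR adjusted p = 0.122). Polr1a, the largest subunit, had 69.4, 58.0 and 68.0 CPM against 69.2, 73.4 and 70.1 CPM. Here control replicate 2 was the lowest library and the groups overlapped (log2 fold change 0.12, adjusted p = 0.353). Polr1c had 128, 172 and 127 CPM in controls and 156, 154 and 148 CPM with sorafenib. Control replicate 2 was above, and the other controls below, every sorafenib library.

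The Polr1c difference therefore rested on that library. With all controls its log2 fold change was 0.10 ± 0.11 (SE; edgeR adjusted p = 0.596). Without control replicate 2 it was 0.26, called higher at an adjusted p of 0.00105, and Polr1b was called lower at -0.18 with an adjusted p of 0.0475. The ratio of Polr1b to Polr1a in FPKM was 0.983 ± 0.0924 (SD, n = 3) in controls and 0.796 ± 0.0400 with sorafenib. The groups did not overlap in this ratio, and the two-sided exact permutation p of 0.10 is the smallest that 3 libraries against 3 allow. It was 1 of 7 ratios between partners of a complex, chosen after the values were seen (Benjamini-Hochberg adjusted p = 0.350).

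Proteins of box C/D and box H/ACA snoRNPs gave no call among 7 genes, with or without control replicate 2. The core box C/D proteins Nop56 and Nop58 had log2 fold changes of -0.04 and -0.09. Nop58 had 156, 166 and 152 CPM in controls and 152, 143 and 149 CPM with sorafenib, and before rounding every sorafenib library was below every control (adjusted p = 0.383). Fbl was at 167 ± 19.9 CPM in controls and 170.3 ± 13.1 CPM with sorafenib. Rrp9, which belongs to the box C/D particle that starts small subunit processing, had a log2 fold change of -0.01.

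Of the box H/ACA proteins, the pseudouridine synthase dyskerin (Dkc1) was at -0.11 and its partners Gar1 and Nhp2 at 0.04 and -0.04 in log2 fold change. Nhp2 was the member most affected by control replicate 2, with 57.1, 81.2 and 57.2 CPM in controls and 65.3, 59.7 and 65.2 CPM with sorafenib. All sorafenib libraries lay between control replicate 2 and the other controls. Ratios within the particles overlapped between groups: in FPKM Dkc1 over Nhp2 was 0.378 ± 0.0520 against 0.352 ± 0.0175, Gar1 over Nhp2 was 0.444 ± 0.0535 against 0.464 ± 0.0315, Nop58 over Nop56 was 2.35 ± 0.0969 against 2.27 ± 0.0878, and Fbl over Nop58 was 1.55 ± 0.111 against 1.69 ± 0.178.

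In the small subunit group Rrp12 fell, as 1 of 8 genes. Rrp12, which takes part in maturation and nuclear export of pre-ribosomes, had 127, 116 and 129 CPM in controls and 103, 105 and 105 CPM with sorafenib. All sorafenib libraries were below all controls, and control replicate 2 was the lowest control. The log2 fold change was -0.26 ± 0.07 (SE; edgeR adjusted p = 0.0237), a decrease of 16.4%. The call was lost with total counts only (adjusted p = 0.157), without control replicate 1 (0.0530) or 3 (0.116), without each sorafenib library in turn (0.0933 to 0.110) and in the FPKM settings (0.190 to 0.299), and it held in 9 of 19 alternatives.

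The other small subunit factors stayed below the threshold. Utp20 and Heatr1 are large scaffold proteins of the small subunit processome. Utp20 had 66.4, 50.3 and 58.0 CPM in controls and 65.7, 68.2 and 66.5 CPM with sorafenib, with control replicates 2 and 3 below the rest and replicate 1 within the sorafenib range. Its log2 fold change of 0.20 ± 0.10 (SE; adjusted p = 0.195) had the highest value of the 39 with all libraries. It was 0.30, at an adjusted p of 0.0399, without control replicate 1, and 0.11, at 0.245, without control replicate 2, where Polr1c and Wdr12 were higher at 0.26. Heatr1 was at -0.04. Noc4l, a partner of Nop14 in the processome, had 58.7, 66.6 and 72.3 CPM in controls and 58.5, 57.1 and 58.1 CPM with sorafenib, and control replicate 1 lay close to the sorafenib libraries. Its log2 fold change was -0.19 (adjusted p = 0.164), and -0.26 at 0.0418 without control replicate 1. Nop14 was at -0.04, the processome protein Wdr43 at -0.05, the late assembly factor Tsr1 at -0.01 and Bysl, a component of late small subunit precursors, at -0.13.

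**Figure D4:**
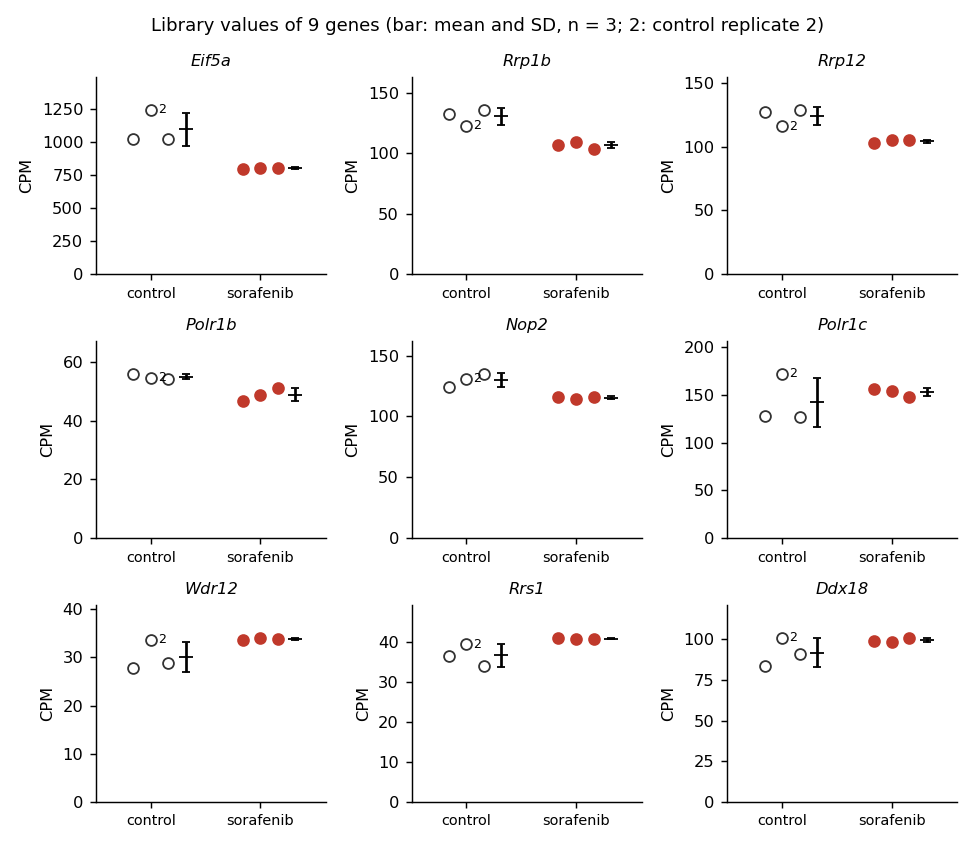
CPM (linear axis from 0) of 9 ribosome biogenesis genes in each control library (open) and sorafenib library (filled), with mean and SD (n = 3); the genes were chosen after their values were seen, and control replicate 2 is marked 2. Eif5a, Rrp1b, Rrp12, Polr1b and Nop2 lie lower in every sorafenib library than in every control and Rrs1 higher, while among controls Polr1c, Wdr12, Rrs1 and Ddx18 are highest in replicate 2.

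In the large subunit group Rrp1b fell, as 1 of 15 genes. Rrp1b, a nucleolar protein of large subunit precursors, had 133, 123 and 136 CPM in controls and 107, 109.7 and 104 CPM with sorafenib. All sorafenib libraries were below all controls. The log2 fold change was -0.29 ± 0.07 (SE; edgeR adjusted p = 0.0141), a decrease of 18.1%. The call was lost with total counts only (adjusted p = 0.101), without control replicate 3 (0.0791) without each sorafenib library in turn (0.0537 to 0.0965) and in the FPKM settings (0.112 to 0.210), and it held in 11 of 19 alternatives.

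Rrp1b overlaps Hsf2bp on the opposite strand in the GENCODE M21 annotation. The strand setting of the counting is not given in the labels or notes, so reads of the 2 genes may not be told apart. Hsf2bp was at 2.44 ± 0.792 CPM in controls and 1.18 ± 0.124 CPM with sorafenib (adjusted p = 0.0256), far below Rrp1b at 130.5 ± 6.72 CPM. In all, 18 of the 39 genes have a gene on the opposite strand over part of their length; for Wdr12 it is Carf, at 3.92 ± 0.993 CPM in controls and 4.72 ± 0.455 CPM with sorafenib.

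The trimer of Pes1, Bop1 and Wdr12, which is needed for large subunit precursor processing, showed unequal values. Wdr12 had 27.9, 33.7 and 28.8 CPM in controls and 33.6, 34.1 and 33.9 CPM with sorafenib. Its control replicate 2 lay within the sorafenib range and the other controls below it. Bop1 had 66.2, 70.2 and 71.8 CPM against 65.9, 56.6 and 61.4 CPM, with every sorafenib library below every control. Pes1 had 137, 181 and 157 CPM against 156, 153 and 150.0 CPM, with the sorafenib libraries inside the control range. The log2 fold changes were 0.17 for Wdr12 (edgeR adjusted p = 0.226), -0.18 for Bop1 (0.147) and -0.05 for Pes1 (0.776). Without control replicate 2, Wdr12 was called higher at 0.26 (0.0116). In FPKM the ratio of Wdr12 to Pes1 was 0.0617 ± 0.00368 in controls and 0.0716 ± 0.00176 with sorafenib, without overlap (exact permutation p = 0.10, adjusted 0.350). The ratio of Bop1 to Pes1, 0.507 ± 0.0559 and 0.458 ± 0.0307, overlapped between groups.

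Among the other large subunit genes, Rrs1 was the single gene of the 39 whose CPM was higher in every sorafenib library than in every control. Rrs1, which with its partners brings the large subunit's small ribosomal RNA particle into the precursor, had 36.4, 39.4 and 33.9 CPM in controls and 41.0, 40.8 and 40.6 CPM with sorafenib. Its log2 fold change was 0.16 ± 0.08 (SE; edgeR adjusted p = 0.201), and 0.22 at 0.0230 without control replicate 2. The helicase Ddx18 had 83.4, 101 and 91.2 CPM against 99.2, 98.4 and 101 CPM. Control replicate 2 was slightly above the highest sorafenib library before rounding and the other controls below all of them, and the log2 fold change was 0.11 with it (adjusted p = 0.374) and 0.19 without it (0.0181). Nop2, a ribosomal RNA cytosine methyltransferase, had 124, 131 and 135 CPM in controls and 116, 114 and 116 CPM with sorafenib, with no overlap. Its log2 fold change was -0.17 ± 0.07 (SE; unadjusted p = 0.0235, adjusted p = 0.0986), and -0.16 at 0.0338 without control replicate 2. Nop2 was also called lower with all 6 libraries when the gene length trend was removed, at -0.18 (edgeR adjusted p = 0.0352). It was called in 3 of 19 alternatives.

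The remaining 8 large subunit genes had log2 fold changes below 0 and no call in any setting. Nop16 was at -0.18, the assembly factor Nle1 at -0.16 and nucleostemin (Gnl3), a nucleolar GTPase, at -0.15. For Nle1 (37.3 ± 1.83 against 33.4 ± 0.520 CPM) and Gnl3 (124 ± 10.4 against 112 ± 0.665 CPM) the groups did not overlap, at adjusted p of 0.187 and 0.215. Wdr74 was at -0.07, the helicase Ddx21 at -0.05, the histone and ribosomal protein chaperone Grwd1 at -0.04, the methyltransferase Ftsj3 at -0.03 and the assembly factor Ppan at -0.02.

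Of the translation factors, Eif5a showed the largest difference of the 39. Eif5a, the factor that carries the modified amino acid hypusine and helps ribosomes through difficult stretches, had 1024, 1245 and 1027 CPM in controls and 794, 807 and 804 CPM with sorafenib. The sorafenib libraries lay close together and all below the controls, of which replicate 2 was the highest. The decrease was 27.0%, or -0.45 ± 0.10 (SE; edgeR adjusted p = 0.00901) on the log2 scale, and -0.35 (2.82e-05) without control replicate 2. Leaving out sorafenib replicate 1 (adjusted p = 0.0580) or 3 (0.0602) ended the call, and 17 of 19 alternatives with a p of their own kept it. Eif4a1, the RNA helicase of the cap-binding complex, had 1077, 1302 and 1138 CPM against 1056, 1074 and 1042 CPM. It too was below in every sorafenib library, at a log2 fold change of -0.15 (adjusted p = 0.326).

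Some of the genes carry snoRNA genes within their bounds, so a host transcript can also be a source of the guide RNAs of the same pathway. In GENCODE M21, 9 of the 39 genes (23.1%) contained 26 snoRNA genes, against 1.63% of 11632 tested protein-coding genes with at least 1. Nop56 held 5, Nop58 4, and Ncl, Wdr43, Gnl3 and Eif4a1 3 each, with 2 each in Tsr1 and Ppan and 1 in Dkc1. None of the 9 hosts was called, against 7.69% of the 39 and 17.9% of all tested genes, and 9 genes are too few to read this as a trait of hosts. Their log2 fold changes lay between -0.15 and -0.01. Mature snoRNAs were not measured as such.

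Few ribosome biogenesis genes outside the 39 were called. From 182 further genes of the pathway, 168 were tested, of which 3 rose and 2 fell (2.98%, against 17.9% of all tested genes), with a median log2 fold change of -0.00. At an unadjusted p under 0.05 there were 6 higher and 11 lower, against 1981 higher and 2115 lower of all 13255 tested genes. Spata5l1, an AAA ATPase related to the large subunit recycling factor Spata5, rose with a log2 fold change of 0.56 ± 0.10 (SE; edgeR adjusted p = 0.00425), while Spata5 fell by 0.30 (0.0369). Pwp1, a nucleolar WD repeat protein, had 45.3, 49.0 and 45.6 CPM in controls and 59.5, 58.9 and 59.9 CPM with sorafenib, a rise of 0.35 ± 0.07 (0.00585). Utp18, a small subunit processome protein, rose by 0.33 (0.0280), and Exosc5, a subunit of the RNA exosome, fell by 0.35 (0.0203). In these 5 genes the groups did not overlap. The calls of Spata5l1 and Pwp1 held in all 19 alternatives, that of Exosc5 in 15, of Utp18 in 14 and of Spata5 in 10; each of the last 3 was lost without sorafenib replicate 1 or 3.

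By subgroup, the calls outside the 39 were 0 of 18 further RNA polymerase I subunits and factors, 1 higher of 59 small subunit factors, 2 higher and 1 lower of 62 large subunit factors, 0 of 12 snoRNP assembly genes and 1 lower of 17 exosome and nuclease genes. In the lists without a call, the smallest p belonged to Polr1g (-0.19, adjusted p = 0.110) and Ruvbl1 (0.20, adjusted p = 0.140). The 18 polymerase I genes held 3, and the 12 snoRNP assembly genes 2, at an unadjusted p under 0.05, against 4096 of the 13255 tested genes. DESeq2 and limma-voom called 0 in both lists. Without control replicate 2 the 168 genes gave 21 higher and 7 lower (16.7%, against 31.8% of all tested genes in that fit).

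**Figure D5:**
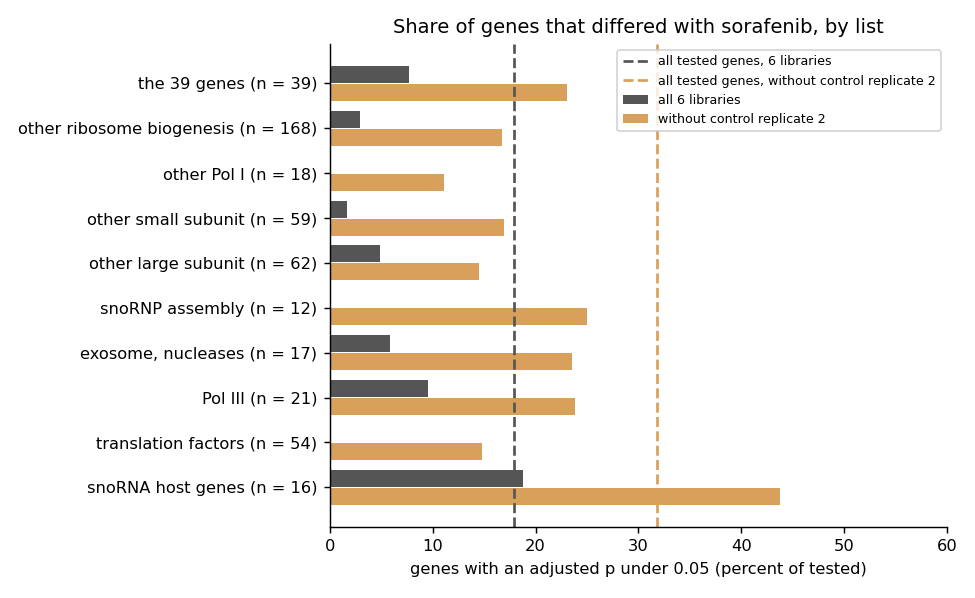
Share of tested genes with an edgeR adjusted p under 0.05, for the 39 ribosome biogenesis genes, the other genes of the pathway and neighbouring lists, with all 6 libraries (dark) and without control replicate 2 (light); dashed lines give the share over all tested genes, 17.9% and 31.8%. The 39 genes (7.69% and 23.1%) and the other ribosome biogenesis genes (2.98% and 16.7%) lie left of the dashed line of the same colour.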

How the data were processed

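RNA-seq was analysed from 3 control and 3 sorafenib libraries of mouse Th9 cells, grouped by sample titles. The files deposited by the authors hold gene counts (whole numbers) and, separately, FPKM. In the deposited FPKM each value equalled the count divided by the library total and a gene length, and that length was used here. Per the labels' protocols, TRIzol was used for extraction and a VAHTS Universal V5 kit for the libraries. Per the submitters' processing notes, the build was GRCm39 and the tools were fastp, HISAT2, HTSeq, DESeq2 and R 3.2.0. The notes do not say what each tool did, whether counting used strand, or how reads with several matches were treated. Values of genes that overlap or have close paralogs are therefore uncertain.

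The 39 genes, the gene lists and the rule for naming genes were chosen with earlier results of these data known. Every one of the 39 is named, plus from each other list up to 3 called genes per direction with the smallest adjusted p, or, in a list without calls, the 1 with the smallest p. After filterByExpr and TMM scaling, edgeR 4.0.16 in R 4.3.3 fitted group as the only term, and its robust quasi-likelihood F test was used. The common biological coefficient of variation was 10.9%, on 4 residual degrees of freedom. Benjamini-Hochberg adjustment ran over all 13255 tested genes, and calls are at an adjusted p under 0.05. The F statistic gave the standard errors. Alternatives were other scalings and filters, DESeq2 1.42.0, limma 3.58.1 (voom on counts, trend on log2 FPKM), a replicate block, each library left out, removal of the gene length trend and a stricter threshold. Same-numbered libraries of the groups had deviations correlated at -0.0627, 0.152 and 0.102, so the numbers were not taken to pair them. With 3 libraries per group these correlations cannot exclude pairing. Promoters came from RefSeq on GRCm38.p6, and gene overlaps and snoRNA genes from GENCODE M21 on GRCm38. As the build differs from that of the files, they were joined by gene symbol only. The ratios within complexes, the genes drawn by library, the overlapping genes Hsf2bp and Carf, and the promoters shown whole were chosen after values were seen.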

Additional observations from a re-analysis of the deposited data

How the results depend on the processing

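With DESeq2 size factors, a stricter low-count filter (CPM no lower than 1 in 3 samples), no filter on low counts, DESeq2 and limma-voom, the 39 genes kept 0 calls higher and 3 lower. Scaling by total counts only gave 2 higher (Wdr12 and Rrs1) and 1 lower, a median log2 fold change of 0.03, and 6 higher and 1 lower among the other ribosome biogenesis genes. On log2(FPKM + 1) and on log2(FPKM + 0.1) there were 1 higher (Rrs1) and 1 lower, the median was 0.03, and the other genes gave 9 higher and 1 lower. On log2(FPKM + 1) with no filter, 1423 genes of the table, 1 of the 39 lower and 0 of the other genes lower were called, with a median of 0.03. These scalings also changed the split over all genes: 47.4% of calls were higher with TMM factors, 64.4% with total counts only and 65.7%, 65.0% and 63.5% with the FPKM settings. Upper-quartile factors left 1 lower among the other genes, and removal of the gene length trend gave 7. That removal gave 3195 calls in all, with 0 higher and 4 lower of the 39, Nop2 among them. With an adjusted p under 0.01 there were 1227 calls in all, 1 of the 39 lower and 0 of the other genes lower. The cause was not tested, except that a stricter threshold can only lose calls.

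Leaving out 1 library at a time gave 1243 to 4325 calls in all, 0 to 4 of the 39 higher and 0 to 5 lower, and 2 to 21 of the other genes higher and 0 to 7 lower. The highest of each range came without control replicate 2. Without sorafenib replicate 3 came the lowest count in all, and without sorafenib replicate 1 or 3 none of the 39 and none of the other genes was called lower. An alternative added after seeing the data removed the length trend and left out control replicate 2; it gave 4251 calls, 3 of the 39 higher and 6 lower, and 15 of the other genes higher and 8 lower.

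With the replicate number as a block, 2139 genes were called in all and 0 higher and 2 lower of the 39, since Rrp12 moved to an adjusted p of 0.0544; no other of the 39 changed its call. The labels do not say whether the numbers pair the libraries, and they were not taken to do so, so this is given only here.

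None of the 39 genes changed sign in a setting where it was called. Genes called in neither setting did: 14 with total counts only, 15 in each FPKM setting and 9 without control replicate 2. The counts of motifs in proteins that were planned were not run.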

Other observations

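Of 16 tested snoRNA host genes without a protein product, 3 rose with sorafenib and 0 fell. This share, 18.8%, compares with 8.51% of all tested genes called higher and 17.9% called in either direction, and the difference was not tested. Of the 16, 11 had a log2 fold change above 0 and 5 below. Snhg5 had 62.1, 83.7 and 63.6 CPM in controls and 108, 103 and 106 CPM with sorafenib, a log2 fold change of 0.60 ± 0.11 (SE; edgeR adjusted p = 0.00373) that was called in all 19 alternatives. Snhg15 rose by 0.41 (adjusted p = 0.0243), from 33.8 ± 5.25 to 44.9 ± 1.54 CPM, and Snhg12 by 0.30 (adjusted p = 0.0270), from 145 ± 15.1 to 178 ± 5.24 CPM. The calls of Snhg15 and Snhg12 were lost without control replicate 3 and without each sorafenib library, and that of Snhg12 also without control replicate 1. Without control replicate 2, 7 hosts were called higher and 0 lower (43.8%, against 31.8% of all tested genes in that fit, 15.0% higher). With all 6 libraries, none of the 9 protein-coding hosts among the ribosome biogenesis genes was called, against 7.69% of the 39 and 17.9% of all tested genes. With 9 genes, no difference between the groups of hosts can be read from these counts, and none was tested.

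Of 21 tested genes of RNA polymerase III and its factors, which supply the smallest ribosomal RNA and the transfer RNAs, 2 rose and 0 fell. This was 9.52%, against 8.51% of all tested genes called higher and 17.9% called in either direction. DESeq2 also called 1 lower, against 1420 of all 13255 tested genes. Without control replicate 2 there were 2 higher and 3 lower (23.8%, against 31.8%). Gtf3c1 had 138, 104 and 135 CPM in controls and 167, 158 and 171 CPM with sorafenib, a log2 fold change of 0.39 ± 0.10 (SE; edgeR adjusted p = 0.0221). Gtf3a, the factor specific to the smallest ribosomal RNA, rose by 0.28 (adjusted p = 0.0328). The call of Gtf3c1 was lost without each sorafenib library in turn, and that of Gtf3a also without control replicate 1 or 3.

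Among 54 translation initiation and elongation factors other than Eif4a1 and Eif5a, none was called by edgeR or limma-voom, against 17.9% of all tested genes by edgeR. DESeq2 called 2 lower, against 1420 of all 13255 tested genes. At an unadjusted p under 0.05 there were 2, both lower, against 2115 lower over all tested genes. Eif5b, which joins the ribosomal subunits at the start codon, had the smallest p, with 147, 142 and 145 CPM in controls and 136, 110.0 and 121 CPM with sorafenib (log2 fold change -0.24, adjusted p = 0.0648). Without control replicate 2 the 54 genes gave 5 calls higher and 3 lower (14.8%, against 31.8% of all tested genes).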
